A study of Mus musculus with 6 samples.

Results

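The 10 genes described here encode the 4 receptors of the ErbB family (Egfr, Erbb2, Erbb3 and Erbb4), 5 of their ligands (Tgfa, Hbegf, Btc, Nrg1 and Nrg4) and Errfi1, a feedback inhibitor of these receptors. They were taken by gene symbol from a table of 24054 genes, all 10 were present, and all 10 had enough counts to be tested. The table holds messenger RNA counts from the salivary gland of mice in 2 groups of 3 libraries. One group was K5-rtTA:TetO-RANKL mice, in which the keratin 5 promoter drives a doxycycline-dependent activator that switches on a RANKL transgene, so that RANKL, a cytokine of the TNF family, is made by basal-type epithelial cells. The other group was monogenic control mice. The sources used here do not say which transgene the controls carried, nor the mouse strain, the sex or which salivary glands were taken. Doxycycline was given to mice of both groups, in their food and water, for 2 weeks starting at 9 weeks of age. Every library came from 5 pooled mice, and p-values measure the spread among such pools.

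ErbB receptors are tyrosine kinases of the cell surface that pair with each other when a ligand binds. Egfr binds Egf, Tgfa, Hbegf and Btc, while Erbb3 and Erbb4 bind the neuregulins, and Btc and Hbegf also bind Erbb4. Erbb2 has no ligand of its own and acts as a partner of the other receptors, and Erbb3 has little kinase activity of its own. Ligands are made as membrane proteins and are released by proteases of the ADAM family. Signals run through RAS and MAP kinases and through PI3 kinase, and in salivary glands the pathway is known for its part in branching and in growth of the ducts. The ducts of the mouse submandibular gland are also a rich source of Egf.

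Library totals ran from 13875951 to 17921815 counts in controls and from 14149734 to 16412579 in K5-RANKL libraries. Levels are given as CPM, a gene's counts relative to the size of its library after scaling by trimmed mean of M values (TMM), a scaling that assumes that most genes do not change. The 20 most abundant genes of each library took 64.9 to 67.3% of the counts of each control but 32.0 to 39.1% of those of each K5-RANKL library. The TMM factors ran from 0.677 to 0.735 in controls and from 1.32 to 1.47 in K5-RANKL libraries. With library totals as the only scaling, the median of all genes tested moved from 0.01 to 1.01 on the log2 scale, and every fold change below is relative to the TMM scale. The transgene product Tnfsf11 stood at 3.78, 1.87 and 0.939 CPM in the controls and at 702, 405 and 723 CPM in the K5-RANKL libraries, lowest in K5-RANKL 2. The listed acinar markers summed to between 124412 and 171859 CPM in controls and between 8001 and 11661 CPM in K5-RANKL libraries, with Bpifa2 the most abundant, and all 10 were called lower. In whole tissue, fewer cells of a type and less RNA per cell cannot be told apart.

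The receptors went both ways, with Egfr and Erbb3 higher and Erbb2 and Erbb4 lower in the K5-RANKL glands. Of the 10 members, 4 were called higher and 3 lower at an adjusted p under 0.05, where 66.2% of all 14044 genes tested were called, 34.2% higher and 32.1% lower. The share of members called is therefore close to that of all genes. Groups did not overlap for 6 of the 10 members, against 70.4% of all genes tested. The median log2 fold change of the members was 0.30, beside 0.01 for all genes tested. What sets the members apart from each other is their size and direction, from a fall of Erbb4 by 2.67 to a rise of Nrg1 by 2.26.

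**Figure D1:**
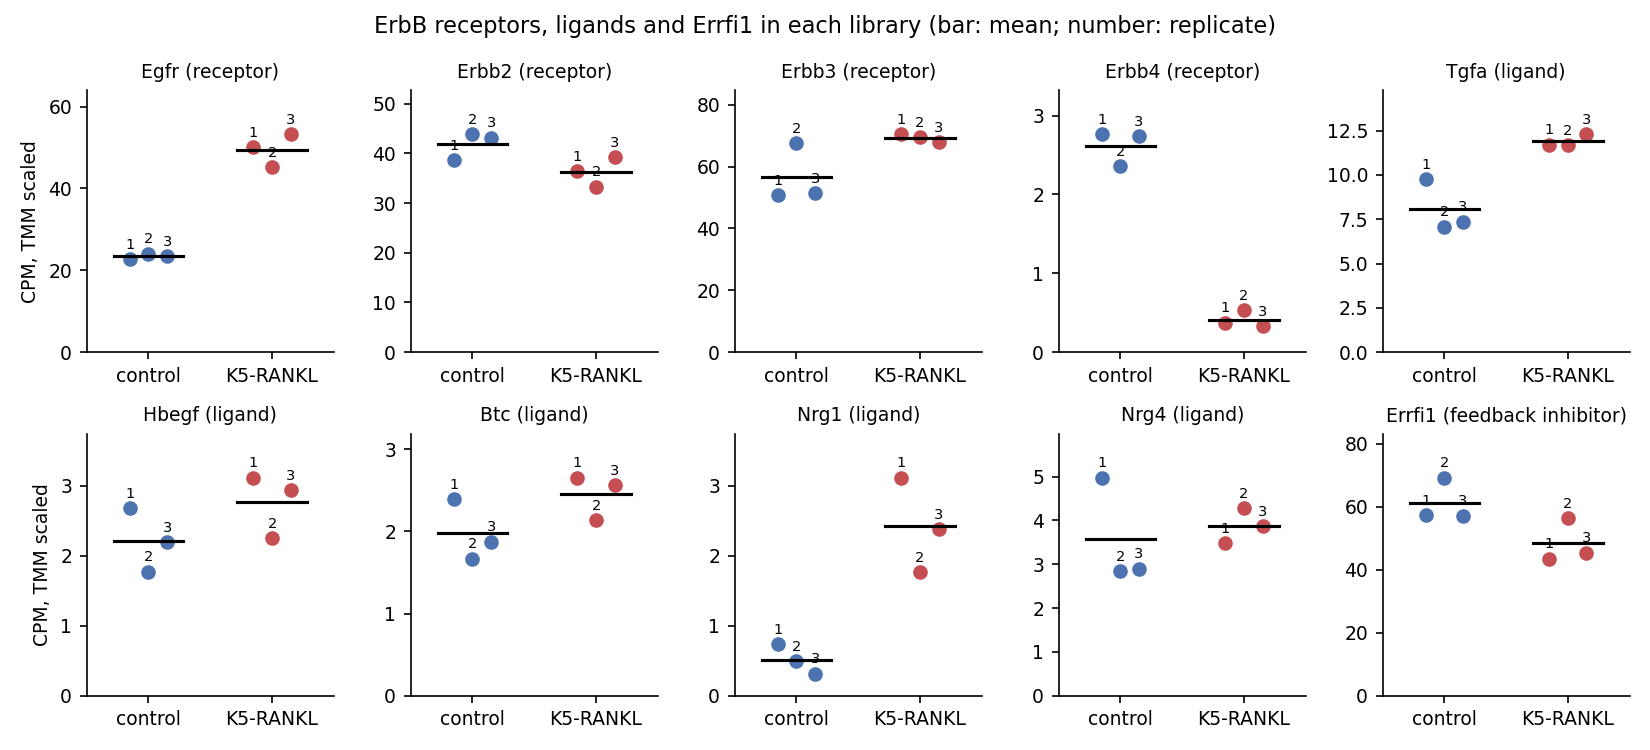
CPM on TMM-scaled library sizes (y axis, linear from 0) of the 10 members by library, 3 from each group; points carry the library number, given in order of deposit, and bars show group means. Erbb4 lies between 2.36 and 2.77 CPM in controls and between 0.326 and 0.535 CPM in the K5-RANKL group, and Nrg1 between 0.313 and 0.737 and between 1.77 and 3.11 CPM.

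Egfr, the receptor of Egf and Tgfa (Entrez 13649, chromosome 11 from 16752203 to 16913907 in GRCm38), was about 2-fold higher. The controls held 22.7, 24.1 and 23.5 CPM and the K5-RANKL libraries 50.02, 45.2 and 53.3 CPM. All 3 K5-RANKL libraries lay far above all 3 controls, and the controls differed little among themselves. The mean went from 23.4 ± 0.692 to 49.5 ± 4.05 CPM (SD, n = 3 each), a log2 fold change of 1.08 (SE 0.09, edgeR adjusted p = 6.19e-09). Of all genes tested, 15.8% had a higher log2 fold change. Egfr was called higher in every alternative run, between 1.03 and 2.08.

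Erbb4, a neuregulin receptor (Entrez 13869, chromosome 1 from 68031884 to 69108576), fell furthest among the members. It had 30, 24 and 35 counts in the controls and 9, 10 and 7 counts in the K5-RANKL libraries, which is 2.77, 2.36 and 2.74 CPM against 0.374, 0.535 and 0.326 CPM. The lowest control was above the highest K5-RANKL library by a wide margin. The log2 fold change of Erbb4 was −2.67 (SE 0.30, edgeR adjusted p = 4.02e-07), or 6.38-fold lower, and 0.776% of all genes tested had a lower log2 fold change. It was lower by library totals too, at −1.68. The few counts limit the size of the fold more than its direction, which held without any 1 library, between −2.88 and −2.53.

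Erbb3, the neuregulin receptor with little kinase activity (Entrez 13867, chromosome 10 from 128567523 to 128589635), was slightly higher. The controls held 50.8, 67.5 and 51.3 CPM and the K5-RANKL libraries 70.5, 69.5 and 67.8 CPM. Control 2 came close to the K5-RANKL libraries, and the other 2 controls lay well below. The log2 fold change was 0.30 (SE 0.10, edgeR adjusted p = 0.0126). The call was lost without control 1, at 0.22 (edgeR adjusted p = 0.0651), or without control 3, at 0.22 (edgeR adjusted p = 0.0783). Over all its alternatives the adjusted p ran up to 0.0783.

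Erbb2, the receptor with no ligand of its own (Entrez 13866, chromosome 11 from 98412484 to 98437716), was slightly lower, with groups that overlapped. Controls held 38.6, 43.9 and 43.2 CPM and K5-RANKL libraries 36.4, 33.3 and 39.2 CPM. K5-RANKL 3 was above control 1. Its log2 fold change of −0.21 (SE 0.09) was just past the threshold (edgeR adjusted p = 0.0415). Leaving out either control 2 or 3 (edgeR adjusted p = 0.123 and 0.11), or either K5-RANKL 1 or 2 (0.0779 and 0.16), ended the call. Nor was it called with DESeq2 (adjusted p = 0.0742) or without the low-count filter (edgeR adjusted p = 0.0707). By library totals the value was 0.79, which is −0.22 relative to the median of all genes.

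**Figure D2:**
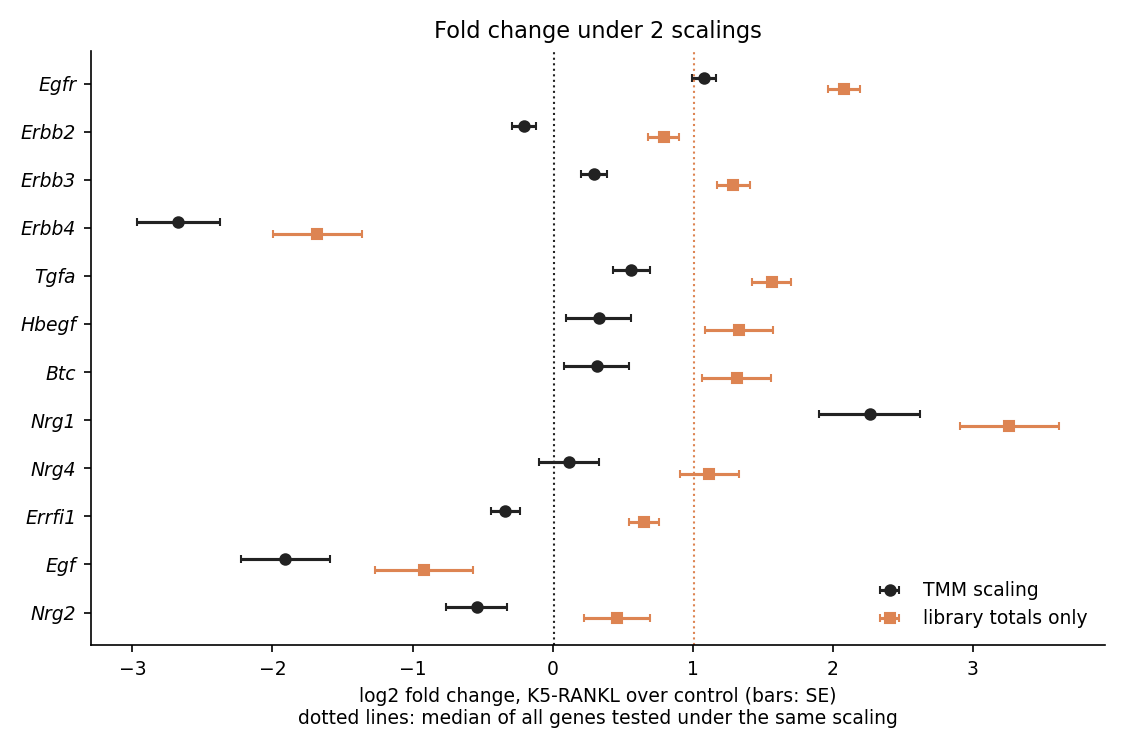
Log2 fold change (x axis, K5-RANKL over control) with its SE for the 10 members and for Egf and Nrg2 (y axis), with TMM scaling (circles) and with library totals only (squares); dotted lines are the medians of all genes tested, 0.01 and 1.01. Changing the scaling shifts all 12 genes by nearly the same amount, so Erbb2, Errfi1 and Nrg2 change sign while their place relative to the median stays.

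Within a library the mix of the 4 receptors does not depend on the scaling of libraries. Counts were divided by the length of each gene's annotated exons and expressed as a share of the sum over the 4 receptors. Egfr made up 11.1, 9.67 and 10.8% of this sum in the controls and 19.1, 18.2 and 19.99% in the K5-RANKL libraries. The Erbb2 share was 41.0, 38.3 and 43.4% in the controls and 30.2, 29.1 and 32.0% in the K5-RANKL libraries. Thus Egfr took a larger and Erbb2 a smaller share in every K5-RANKL library than in any control. The 4 shares add up to a fixed total, so a smaller Erbb2 share need not mean fewer Erbb2 transcripts. By CPM the groups of Erbb2 overlapped, at a log2 fold change of −0.21. Erbb3 held 47.5% ± 3.31 and 50.4% ± 2.34 (SD, n = 3 each), with groups that overlapped. The share of Erbb4 went from 1.09% ± 0.195 to 0.147% ± 0.0446 (SD, n = 3 each), again without overlap. With 3 libraries against 3 the two-sided exact permutation test cannot go below p = 0.1, which Egfr, Erbb2 and Erbb4 reached (adjusted over the 4 receptors, 0.133), while Erbb3 had p = 0.3.

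**Figure D3:**
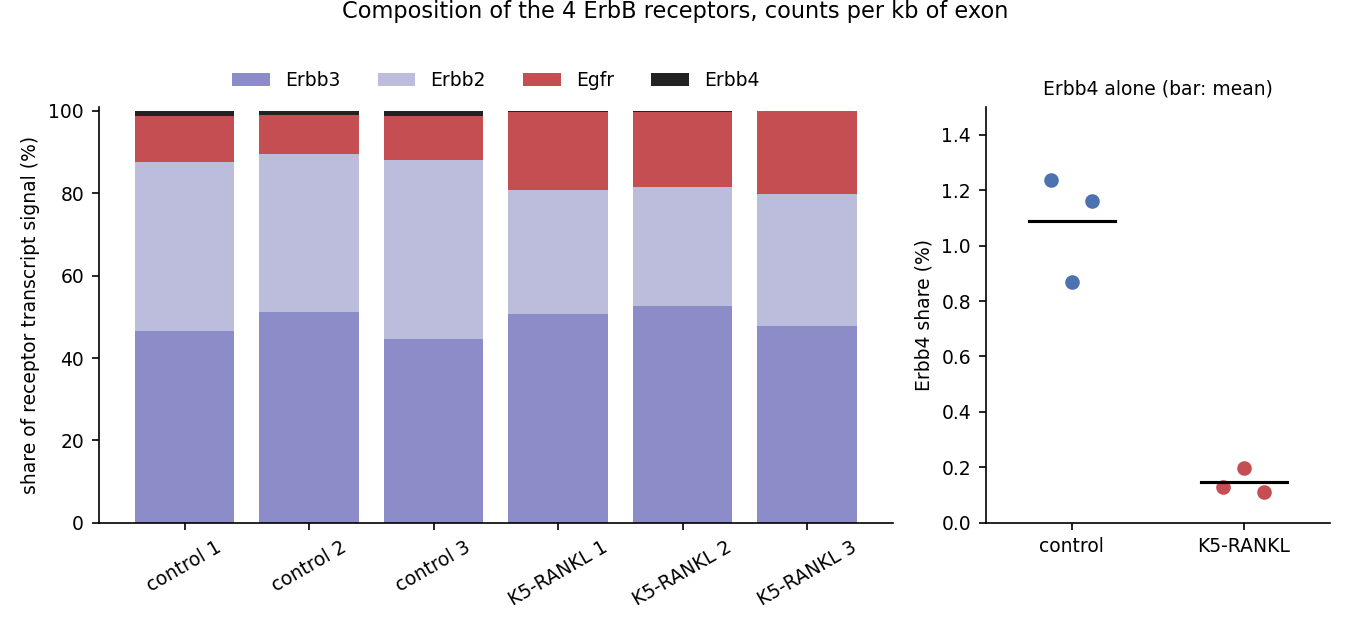
Share of each receptor (percent, y axis) in the sum of length-scaled counts of Egfr, Erbb2, Erbb3 and Erbb4 for each of the 6 libraries (left, stacked bars), and the Erbb4 share alone (right, points are libraries and bars are means). The Egfr band is 9.67 to 11.1% in controls and 18.2 to 19.99% in K5-RANKL libraries.

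Per kilobase of exon, the order of the receptors was the same in both groups: Erbb3, Erbb2, Egfr and Erbb4. In controls the levels were 9.40 ± 1.58, 8.04 ± 0.549, 2.07 ± 0.0611 and 0.212 ± 0.0185 CPM per kb (SD, n = 3 each). The difference between Erbb3 and Erbb2 in controls was less than the SD of Erbb3. In K5-RANKL libraries they were 11.5 ± 0.226, 6.97 ± 0.567, 4.37 ± 0.358 and 0.0333 ± 0.00886 CPM per kb, and all neighbours in that order were apart by more than their SDs.

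Among the ligands, Nrg1 and Tgfa rose, and Hbegf, Btc and Nrg4 did not pass the test. Nrg1, the neuregulin that binds Erbb3 and Erbb4 (Entrez 211323, chromosome 8 from 31807452 to 32891609), had 8, 5 and 4 counts in the controls and 75, 33 and 51 counts in the K5-RANKL libraries. That is 0.737, 0.491 and 0.313 CPM against 3.11, 1.77 and 2.38 CPM. No control came near the lowest K5-RANKL library, K5-RANKL 2. The log2 fold change was 2.26 (SE 0.36, 4.80-fold, edgeR adjusted p = 2.76e-05), and 5.11% of all genes tested had a higher one. It was called in every alternative that tested it, between 1.97 and 3.26.

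Summed marker levels of some cell types are given here beside Nrg1 and Egfr, and not all of them rose. The 6 listed basal cell markers, led by Krt5, summed to between 121 and 138 CPM in controls and to 996, 454 and 907 CPM in K5-RANKL 1, 2 and 3, and 5 of 6 were called higher. The 6 fibroblast markers, led by Col3a1, summed to between 485 and 641 CPM in controls and between 2098 and 2422 CPM in K5-RANKL libraries, with 5 called higher. Col3a1 and Col1a1 carried this sum: without these collagens the other 4 summed to between 307 and 359 CPM and between 342 and 396 CPM, with groups that overlapped. Of these 4, Pdgfrb, Pdgfra and Lum were called higher, at log2 fold changes of 1.40, 0.69 and 0.28. Dcn, the most abundant of them, was not called, at −0.12. All 7 macrophage markers, led by Csf1r, were called higher, and their sum went from between 90.7 and 118 to between 492 and 503 CPM. The 6 Schwann cell and nerve markers, led by Sox10, summed to between 137 and 154 and between 126 and 132 CPM, with 1 called higher and 3 lower. Without Sox10 they summed to between 52.3 and 59.8 and between 88.8 and 92.2 CPM. Mbp, the 1 called higher, carried that rise. Without Sox10 and Mbp the other 4 summed to between 10.6 and 12.5 CPM in controls and between 8.25 and 9.42 CPM in K5-RANKL libraries. No listed marker of these cell types was at 0 in a whole group. The part of these cells in the levels of Nrg1 and Egfr was not tested.

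Tgfa, a ligand of Egfr (Entrez 21802, chromosome 6 from 86195038 to 86275744), was at 9.77, 7.07 and 7.35 CPM in the controls and at 11.7, 11.7 and 12.3 CPM in the K5-RANKL libraries. The K5-RANKL libraries were close to each other, and control 1 was the highest control. The mean went from 8.06 ± 1.48 to 11.9 ± 0.357 CPM (SD, n = 3 each), a log2 fold change of 0.56 (SE 0.13, edgeR adjusted p = 0.00108). Tgfa was called higher in every alternative run, between 0.48 and 1.56.

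Hbegf, the heparin-binding ligand of Egfr and Erbb4 (Entrez 15200), had overlapping groups. It stood at 2.67, 1.77 and 2.19 CPM in the controls and 3.11, 2.25 and 2.94 CPM in the K5-RANKL libraries, a log2 fold change of 0.33 (SE 0.23, edgeR adjusted p = 0.219). Btc, betacellulin (Entrez 12223, chromosome 5 from 91357261 to 91402994), was alike in its pattern, with 2.40, 1.67 and 1.88 CPM in the controls and 2.66, 2.14 and 2.56 CPM in the K5-RANKL libraries. Its log2 fold change was 0.31 (SE 0.23, edgeR adjusted p = 0.242). For both genes control 1 was above the lowest K5-RANKL library. Nrg4, a neuregulin that binds Erbb4 (Entrez 83961, chromosome 9 from 55220222 to 55283654), was at 4.98, 2.85 and 2.89 CPM in the controls and 3.49, 4.28 and 3.87 CPM in the K5-RANKL libraries. Control 1 was the highest library of all. Its log2 fold change was 0.12 (SE 0.22, edgeR adjusted p = 0.648), and leaving out 1 control turned its sign, at −0.011 without control 2 and −0.031 without control 3. By library totals all 3 of these ligands were called higher, at 1.33, 1.31 and 1.118, which is 0.32, 0.31 and 0.11 above the median of all genes under that scaling. Their SEs of 0.22 to 0.23 leave changes of about that size undecided.

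Errfi1, whose product MIG6 binds the kinase domain of ErbB receptors and is made in response to their signals (Entrez 74155, chromosome 4 from 150853796 to 150868889), was lower. The controls held 57.3, 69.3 and 57.2 CPM and the K5-RANKL libraries 43.6, 56.4 and 45.5 CPM. The groups did not overlap, but K5-RANKL 2 came within 1 CPM of controls 1 and 3. Its log2 fold change was −0.34 (SE 0.10, edgeR adjusted p = 0.0106). The call was lost without control 2, at −0.25 (edgeR adjusted p = 0.0592), or K5-RANKL 3, at −0.29 (edgeR adjusted p = 0.0516). By library totals its value was 0.65, again below the median of all genes.

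Within the K5-RANKL group the members did not vary together in 1 direction. K5-RANKL 2, which had the lowest Tnfsf11 and the lowest sum of basal markers, was the lowest of the 3 for 6 members (Egfr, Erbb2, Tgfa, Hbegf, Btc and Nrg1) and the highest for 3 (Erbb4, Nrg4 and Errfi1). For Tgfa the gap was small, 11.66 CPM in K5-RANKL 2 against 11.70 in K5-RANKL 1. This order was not counted over all genes tested, and its relation to Tnfsf11 was not tested. Among controls, control 1 was furthest from the others, with Nrg4 0.77 above and Erbb3 0.21 below their average on the log2 scale. Leaving out K5-RANKL 2, Nrg1 stood at 2.43 and Egfr at 1.14.

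Egf, the ligand of Egfr made in the granular ducts, was the most abundant ErbB ligand transcript in both groups and fell. Its levels were 521, 824 and 999 CPM in the controls and 179, 184 and 261 CPM in the K5-RANKL libraries. This is a log2 fold change of −1.91 (SE 0.32, edgeR adjusted p = 0.00493). By library totals the call was lost, at −0.92 (edgeR adjusted p = 0.0608). The 9 duct markers, led by Klk1, summed to between 21155 and 23259 CPM in controls and between 6687 and 8804 CPM in K5-RANKL libraries, with 5 called lower and 3 higher. Klk1 carried this sum: without it the other 8 summed to between 508 and 541 CPM in controls and between 546 and 572 CPM in K5-RANKL libraries. Without Klk1 and Krt18 the other 7 summed to between 228 and 237 and between 215 and 236 CPM, with groups that overlapped. The median log2 fold change of the 9 was −0.19. The part of duct cells in the level of Egf was not tested. Nrg2, another neuregulin, was at 3.32, 2.75 and 2.97 CPM in the controls and 1.95, 1.77 and 2.47 CPM in the K5-RANKL libraries. Its log2 fold change was −0.54 (SE 0.22, edgeR adjusted p = 0.0373). Nrg2 missed the threshold on leaving out either control 1 or control 3 (edgeR adjusted p = 0.111 and 0.0707) or either K5-RANKL 1 or 2 (0.0915 and 0.0896), as it did with DESeq2 (0.101) and with no low-count filter (0.0565). By library totals its value was 0.46.

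The remaining ligands had too few counts to test. Areg, encoding amphiregulin, had 0, 0 and 1 counts in the controls and 3, 1 and 3 counts in the K5-RANKL libraries. Ereg, encoding epiregulin, had 0, 2 and 1 against 2, 1 and 0 counts, and Epgn, encoding epigen, had 3, 0 and 2 against 9, 1 and 5 counts. Nrg3 had 0 counts in all controls, which allows up to 0.235 to 0.295 CPM, and 0, 1 and 1 counts in the K5-RANKL libraries. For these 4 genes no difference was detectable at this depth.

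As a share of the length-scaled counts of all 11 ligands with counts, Egf made up 90.8, 95.7 and 96.1% in the controls and 76.5, 79.3 and 82.3% in the K5-RANKL libraries. Every K5-RANKL library lay below every control. The Tgfa share went from 1.87% ± 0.946 to 8.06% ± 1.15 and the Nrg1 share from 0.0783% ± 0.0554 to 1.03% ± 0.365 (SD, n = 3 each). The same held for Hbegf (0.685 to 2.51%), Btc (0.659 to 2.38%), Nrg4 (0.913 to 2.82%), Areg (0.0233 to 0.373%) and Nrg2 (1.42 to 2.84%, means of controls and K5-RANKL libraries), so a higher share beside a lower Egf share was not particular to Tgfa and Nrg1. All 7 shares were higher in every K5-RANKL library than in any control. Their p of 0.1 is the smallest that the exact permutation test allows (adjusted over the 11 ligands, 0.138). The Areg share rests on 0, 0 and 1 counts in the controls and 3, 1 and 3 counts in the K5-RANKL libraries. Leaving Egf out of the sum, a choice made after seeing the data, Tgfa held 32.2% ± 1.07 and 39.1% ± 2.65, Nrg1 1.27% ± 0.378 and 4.93% ± 1.13, and Nrg2 25.2% ± 2.30 and 13.9% ± 1.65 (SD, n = 3 each). Without Egf these 3 shares did not overlap between groups, and those of Hbegf, Btc, Nrg4, Areg, Ereg, Epgn and Nrg3 did.

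Per kilobase of exon the ligands in controls followed the order Egf (69.3 ± 21.4), Tgfa (1.24 ± 0.229), Nrg2 (0.960 ± 0.0914), Nrg4 (0.588 ± 0.2002), Hbegf (0.457 ± 0.0938), Btc (0.438 ± 0.0829) and Nrg1 (0.0496 ± 0.0206 CPM per kb, SD, n = 3 each). Nrg4, Hbegf and Btc did not differ beyond their spread. In K5-RANKL libraries Egf was at 18.4 ± 4.10, Tgfa at 1.83 ± 0.0550, and Nrg2, Nrg4, Hbegf and Btc lay between 0.543 and 0.657, again within their spread. Nrg1, at 0.234 ± 0.0652 CPM per kb, was still the lowest of the ligands tested. The order rests on the lengths used: per kilobase of the longest transcript, Nrg4 stood at 1.71 in controls, close to Tgfa at 1.78, because its longest transcript is 2.10 kb where its exons cover 6.08 kb.

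**Figure D4:**
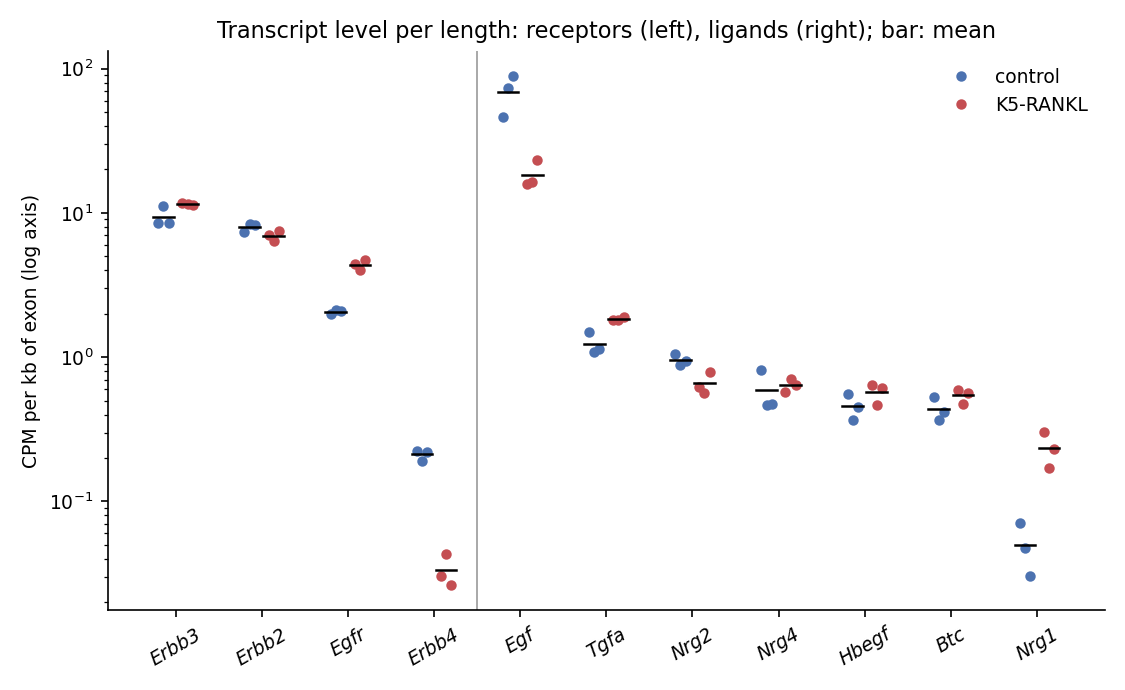
CPM per kilobase of annotated exon (y axis, log scale) of the 4 receptors (left of the line) and of the 7 ligands tested (right) with 1 point for each of the 6 libraries, coloured by group, and bars at group means. Egf stands above all other ligands in both groups, at a mean of 69.3 in controls and 18.4 in K5-RANKL libraries, while Nrg1 has the lowest ligand means, 0.0496 and 0.234.

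Transcripts of genes for the release of ErbB ligands were mostly higher. Of 11 genes listed for ligand shedding, all tested, 9 were called higher, 0 lower and 2 not called, at a median log2 fold change of 0.65. For comparison, 34.2% of all genes tested were called higher and 32.1% lower. Adam17, encoding the main sheddase of Tgfa and Hbegf, was at 24.4, 27.1 and 23.6 CPM in the controls and 75.6, 83.1 and 83.5 CPM in the K5-RANKL libraries. It rose by 1.69 (SE 0.08, edgeR adjusted p = 1.32e-11), with a wide gap between the groups. Adam19, encoding a protease that cleaves neuregulins, rose by 1.43 (SE 0.10, edgeR adjusted p = 2.12e-09). Chosen for their roles after values were seen, Adam10, which releases Egf and Btc, rose by 0.65 (SE 0.07), and Rhbdf1 and Rhbdf2, whose products carry ADAM17 to the cell surface, rose by 0.55 (SE 0.10) and 0.74 (SE 0.10). Bace1, a protease gene outside the ADAM family, and Timp3, encoding a metalloproteinase inhibitor, stood at −0.21 (SE 0.11) and 0.11 (SE 0.09) and did not pass. Shedding itself was not measured. Several of these genes are also expressed by macrophages and fibroblasts, whose markers were higher as given above, and that part was not tested.

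Adaptors and kinases that carry the signal went both ways. Of 28 listed, all tested, 9 were called higher, 7 lower and 12 in neither direction. The median was 0.03, and 34.2% of all genes tested were called higher and 32.1% lower. Stat3, a transcription factor that cytokine receptors also activate, rose from 94.2 ± 3.77 to 201 ± 12.5 CPM (SD, n = 3 each), a log2 fold change of 1.10 (SE 0.08, edgeR adjusted p = 9.28e-10). Nras, a RAS GTPase gene, rose by 0.82 (SE 0.09). Pik3r1, the regulatory subunit of PI3 kinase, and the kinase gene Braf fell by 0.42 (SE 0.08) and 0.40 (SE 0.09). By library totals all 28 were called higher, as were 11733 of all 14044 genes tested. The split between higher and lower thus holds only relative to the bulk of genes.

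Negative regulators of the receptors and of the MAP kinase route went both ways. Of 18 listed, 17 were tested, 7 were called higher, 4 lower and 6 in neither direction. The median was 0.02, and 34.2% of all genes tested were called higher and 32.1% lower. The 4 called lower were Lrig1 and Lrig3, membrane proteins of a family that dampens ErbB receptors, and Spry2 and Spry4, inhibitors of the RAS to MAP kinase route. Lrig1 fell from 63.4 ± 1.08 to 36.1 ± 0.624 CPM (SD, n = 3 each), a log2 fold change of −0.81 (SE 0.07, edgeR adjusted p = 2.32e-08), and Spry2 fell by 0.69 (SE 0.11). Ptpn1, a phosphatase of receptor kinases, rose by 0.98 (SE 0.07), and Cblb, a ubiquitin ligase of the Cbl family, by 0.84 (SE 0.09). Cbl and Cblc, the other ubiquitin ligases of the family, rose by 0.57 (SE 0.12) and 0.59 (SE 0.10). Lrig3, Spry4, Cbl and Cblc were named after their values were seen. By library totals 16 were called higher and 0 lower, beside 11733 and 698 of all 14044 genes tested. Lrig1 and Spry2 then stood at 0.19 and 0.31, both below the median of all genes.

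Genes that respond to MAP kinase signals were mostly higher. Of 16 listed, 15 were tested, 10 were called higher, 2 lower and 3 in neither direction. The median was 0.67, and 34.2% of all genes tested were called higher and 32.1% lower. Dusp4, a MAP kinase phosphatase gene, was at 7.74, 7.26 and 6.65 CPM in the controls and 50.02, 47.7 and 54.0 CPM in the K5-RANKL libraries. It rose by 2.81 (SE 0.10, edgeR adjusted p = 2.82e-13). Junb, an AP-1 subunit gene, rose by 1.97 (SE 0.12). Phlda1 fell from 201 ± 15.1 to 72.3 ± 6.23 CPM (SD, n = 3 each), a log2 fold change of −1.48 (SE 0.08, edgeR adjusted p = 7.51e-11). Dusp6, whose product acts on ERK, fell by 0.32 (SE 0.10), and by library totals it stood at 0.68. These genes respond to many signals besides the ErbB receptors, NF-kB among them for some.

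**Figure D5:**
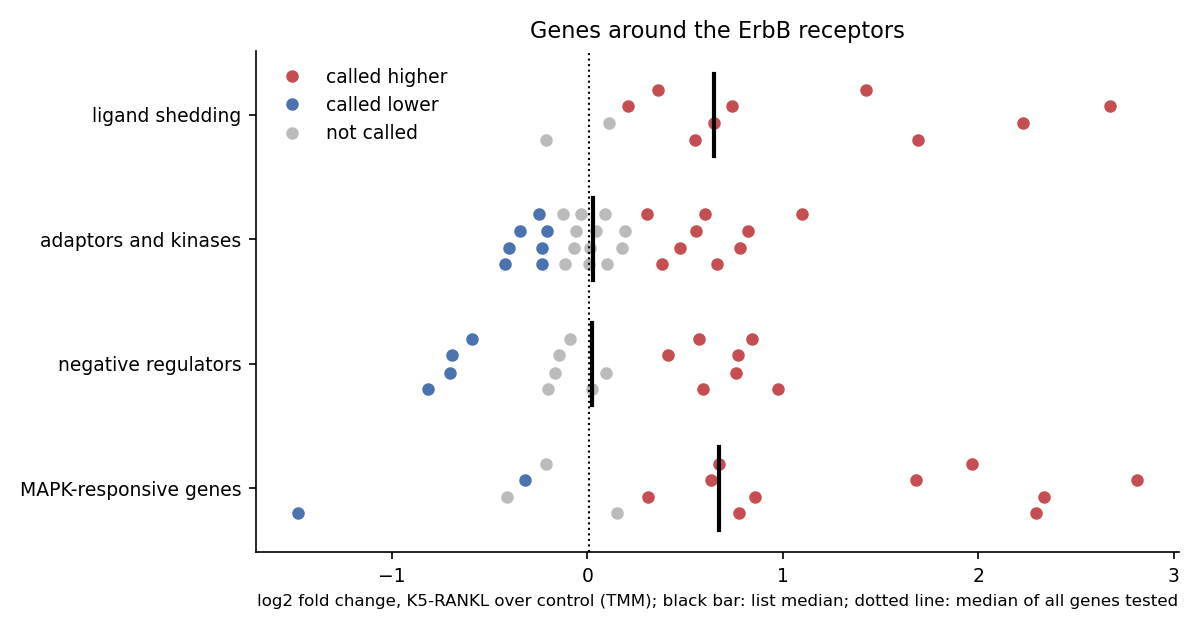
Log2 fold change (x axis, K5-RANKL over control, TMM scaled) of each tested gene in 4 lists (y axis), coloured by call; black bars are list medians and the dotted line is the median of all genes tested, 0.01. The shedding and MAPK-responsive lists have medians of 0.65 and 0.67, and the adaptor and negative regulator lists sit at 0.03 and 0.02.

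The genes whose log2 CPM followed Nrg1 most closely over the 6 libraries were Tra2a, Midn and Etnk2, with Pearson r of 0.9995, 0.998 and 0.995. Those closest to Erbb4 were Ficd, Deaf1 and Stard7, with r of 0.9999, 0.9997 and 0.9995. These values describe 6 libraries in 2 groups. In all, 869 genes had an r above 0.95 with Nrg1 and 2374 with Erbb4.

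RefSeq promoters of GRCm38.p6 were used for 7 members, with 2 for Errfi1. The 250 bases before the start site were searched on both strands for letters of motifs of NF-kB (GGGNNNNNCC) and AP-1 (TGANTCA). Both are factors that act below RANK. The stretches shown are those of 2 members that rose, 1 without and 1 with the NF-kB letters, and of the member that fell furthest. The NF-kB letters were in 6 of the 8 member promoters and in 45.8% of all 32851 promoters, and the AP-1 letters in 0 of 8 and in 6.7%. Erbb3 and Nrg1 have no entry. Hbegf was left out of the member promoters by the chromosome it lies on, a rule not applied to the 32851 promoters. Egfr, which rose, had neither motif in its 250 bases (chr11:16751953-16752202, plus strand), of which 60.8% are G or C. Tgfa, which rose, had 1 match to the NF-kB letters, on the opposite strand, 213 bases before the start site of the table (base 86195222). Erbb4, which fell, had 1 match 145 bases before its start site (base 69108059). These start sites lie inside the gene spans given above. The windows of 30 bases are from chr6:86194999-86195028 (plus strand) for Tgfa and chr1:69108185-69108214 (minus strand) for Erbb4, read 5′ to 3′ on the strand of the gene, with the match in capitals.
Egfr promoter: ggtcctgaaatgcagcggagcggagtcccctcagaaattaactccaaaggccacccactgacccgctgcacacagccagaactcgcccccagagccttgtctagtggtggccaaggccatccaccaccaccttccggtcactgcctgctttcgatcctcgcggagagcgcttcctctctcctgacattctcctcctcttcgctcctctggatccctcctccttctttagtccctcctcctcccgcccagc
Tgfa window: agcgtgtcttGGAGAAGCCCctagcacagg
Erbb4 window: cggttttgggGGGAGAGGCCggaaccccgc
A match is a description of letters, not of a bound site, and the counts here do not measure binding.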

How the data were processed

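RNA was measured in 6 salivary gland libraries, 3 control and 3 K5-RANKL, each from 5 pooled mice, prepared as stranded mRNA libraries per the labels' protocols. The authors deposited raw read counts per gene. STAR was used for alignment and mm10 as the build, per the submitters' processing notes. The sources used here do not give the versions, the counting tool, the annotation or the strand setting, so overlapping and antisense genes are uncertain.

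Genes were kept by filterByExpr with a minimum count of 10 (14044 of 24054) and scaled by TMM. The test was the robust quasi-likelihood F-test of edgeR 4.0.16 in R 4.3.3, two-sided, with Benjamini-Hochberg adjustment over all genes tested. Alternatives used limma 3.58.1 (voom) and DESeq2 1.42.0. The SE was obtained from the fold change and its F statistic. Lengths are the union of GENCODE M21 exons, with the longest transcript as an alternative. Likeness used log2 CPM with a prior count of 2. Positions are those of RefSeq for GRCm38, on which mm10 is built. In the lists, 1 gene was matched by an older symbol.

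No library was a copy of another: chi-square per gene between libraries of a group was at least 5.95, where sampling noise gives about 1. The test was tried on counts simulated for this comparison (13951 genes tested, 200 of them changed). It called 85.1% of 67 genes changed 1.5-fold, 67 of 67 changed 2-fold and 66 of 66 changed 4-fold, and 9 of its 199 calls were of unchanged genes. Far more genes changed here than in that simulation. It used a common dispersion for all genes and left genes with few counts unchanged. Its rates therefore do not cover genes as low as Erbb4 and Nrg1.

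The members, 5 pathway lists and 13 cell type marker lists were chosen with earlier results of these data known. Named genes are the members, the other ErbB ligands, the 2 called genes with the smallest p in each direction of each other pathway list, the 3 genes most like the members with the highest and lowest fold change, the most abundant marker of each list, and Tnfsf11. Alternatives were other scalings, filters and tools, each library left out, and other lengths. Marker sums without their most abundant genes were added after seeing the data. Floors (3 counts) cover counting error only.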

Additional observations from a re-analysis of the deposited data

How the results depend on the processing

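No paired analysis was possible because the labels give no replicate numbers; the numbers used here only name libraries in order of deposit. Of 136 alternatives run for single members, 119 kept the direction and the call, 10 lost and 3 gained a call, and 4 changed sign. By library totals, the median of all genes tested was 1.01 and 94.4% of all calls were higher (51.6% with TMM). Of all 14044 genes tested, 11733 were then called higher and 698 lower, and of the members 9 and 1. Under that scaling Erbb2 was at 0.79, Errfi1 at 0.65, Nrg2 at 0.46, Pik3r1 at 0.57, Braf at 0.60, Lrig1 at 0.19, Spry2 at 0.31, Dusp6 at 0.68, Stard7 at 0.24 and Acta2 at 0.60, all against a negative value with TMM. In the same setting the adaptors and kinases had 28 higher and 0 lower, the negative regulators 16 and 0, the MAPK-responsive genes 1 lower and the other ErbB ligands 0 lower. The other ErbB ligands had 1 lower without the low-count filter, with at least 50 counts in 3 libraries (Nrg2 was not tested there) and with DESeq2. Erbb4, Hbegf, Btc and Nrg1 also had too few counts for that filter. With each library left out in turn, the members called higher numbered 3 to 4 and lower 1 to 3, the other ErbB ligands lower 1 to 2, the shedding genes lower 0 to 1 and the adaptors and kinases lower 4 to 7 (4 without control 3 or K5-RANKL 3); Nrg4 ran from −0.031 to 0.42 and the adipocyte marker Cfd from −0.051 to 0.47.

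Without length scaling, the change in receptor share (K5-RANKL minus control, percentage points) was 12.9 for Egfr (8.55 with it), −0.636 for Erbb3 (2.89) and −1.86 for Erbb4 (−0.942). The changes in ligand share were then 4.07 for Tgfa, 0.900 for Hbegf, 0.796 for Btc, 1.19 for Nrg4, −8.56 for Egf and 0.476 for Nrg2, and with Egf left out 4.83 for Tgfa, −0.652 for Btc, 6.71 for Nrg1 and −7.62 for Nrg2. With the longest transcript, an alternative chosen after seeing the data, they were 4.08 for Tgfa, 0.896 for Btc, 2.56 for Nrg4, −10.9 for Egf and 0.696 for Nrg2, and −7.76 for Nrg2 with Egf left out. These moves follow from the lengths alone. Depth limits Nrg1, with 4 to 8 counts in controls, and Erbb4, with 7 to 10 in K5-RANKL libraries, and left Areg, Ereg, Epgn and Nrg3 untested.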

Other observations

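Other cell types listed as possible sources of ErbB transcripts are given here by the summed CPM of their markers, as values. The 6 myoepithelial markers, led by Acta2, summed to between 412 and 423 CPM in controls and between 346 and 394 CPM in K5-RANKL libraries, with 4 called lower and 1 higher; without Acta2 the sums overlapped, at 245 to 260 and 228 to 261 CPM. The 7 T cell markers, led by Cd4, went from between 67.1 and 72.8 to between 129 and 141 CPM, with 5 called higher. All 4 mast cell markers tested, led by Mcpt4, were called higher, and the sum of the 5 listed went from between 7.19 and 12.2 to between 21.6 and 26.5 CPM. The 5 B cell markers, led by Cd79a, summed to between 102 and 114 and between 115 and 129 CPM, with 1 called higher. The 6 endothelial markers, led by Pecam1, summed to between 125 and 147 and between 146 and 153 CPM, with 2 called higher and 2 lower. No call was made for the 5 adipocyte markers, led by Cfd, which summed to between 212 and 366 and between 259 and 306 CPM. Skeletal muscle markers, led by Myh4, summed to 66.7, 9.33 and 88.1 CPM in the controls and between 110 and 165 CPM in K5-RANKL libraries, with 0 of 5 called by edgeR. Control 2 was the lowest library in this sum, and Myh4 was at a log2 fold change of 0.91 without it (edgeR adjusted p = 0.00238, against 0.155 with all libraries). Its adjusted p was 0.0351 by library totals and 0.00677 with limma voom, and the alternatives spanned 0.00238 to 0.303. The part of these cells in the levels of the ErbB genes was not tested.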
